A study of Mus musculus with 2 samples.

Results

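The genes of 7 secreted proteins, *Myoc*, *Angptl7*, *Mgp*, *Chil1*, *Penk*, *Igfbp6* and *Igfbp7*, were followed through the cells of the mouse cornea before and after an epithelial wound. They are 7 of the 20198 genes in the deposited count matrix and were taken by name, because earlier results of these data placed them in the stromal cells, chiefly the clusters that the deposited table numbers 0 and 10. Their high level in these clusters is therefore how they were chosen, and is given below as a description with no test. The 2 libraries are single-cell RNA-seq of corneas of male mice aged 6 to 8 weeks, whose strain is not given in the sources used here. One library holds unwounded corneas pooled from 4 mice (UW), and the other corneas pooled from 4 mice taken 24 hours after the central epithelium was scraped away (W). Both were split by dispase into epithelium and residual tissue, which were digested with trypsin and collagenase respectively, and 1 library was made for each condition. With 1 library per condition, no difference between W and UW has a replicate check here. The study assigned cells to individual mice with the Souporcell algorithm, and no such assignment was used. Intervals in brackets are exact 95% intervals, which cover counting error only.

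The corneal stroma is a transparent collagen matrix kept by keratocytes, flattened cells that also release many small secreted proteins. Around it, at the limbus and the drainage angle of the eye, lie fibroblast-like cells with secretory programmes of their own. Some of the 7 genes are known from the front of the eye, where their products are found in the aqueous humour or the matrix that it passes through. *Myoc* encodes myocilin, an olfactomedin-domain glycoprotein of the drainage tissue that is mutated in an inherited form of glaucoma. *Angptl7* encodes an angiopoietin-like protein that corneal stroma and drainage tissue secrete. *Mgp* encodes matrix Gla protein, a vitamin K-dependent inhibitor of calcification. *Chil1* encodes a chitin-binding protein without chitinase activity that inflamed tissues release. *Penk* encodes proenkephalin, from which the enkephalin opioid peptides are cut, and *Igfbp6* and *Igfbp7* encode binding proteins of the insulin-like growth factors, the first with a preference for IGF-II and the second with low affinity.

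On GRCm38, GENCODE M21 places *Myoc* at chr1:162639155-162649693 and *Chil1* at chr1:134182176-134190181, both on the plus strand. *Angptl7* lies at chr4:148495183-148500460 and *Penk* at chr4:4133531-4138819, both on the minus strand. *Mgp* is at chr6:136872435-136875823 and *Igfbp7* at chr5:77349240-77408041 on the minus strand, and *Igfbp6* at chr15:102144362-102149511 on the plus strand. All 7 are annotated as protein-coding. Since *Chil1* was the member furthest above its unwounded level in W, *Angptl7* the furthest below, and *Myoc* the member carried by the fewest cluster 10 cells of W, the 250 bases before their starts are shown 5′ to 3′ as RefSeq gives them on GRCm38.p6, in the direction of the gene. They are chr1:134181906-134182155 (plus) for *Chil1*, chr4:148500463-148500712 (minus) for *Angptl7* and chr1:162638900-162639149 (plus) for *Myoc*, and capitals mark the letters TATAAA.
Chil1: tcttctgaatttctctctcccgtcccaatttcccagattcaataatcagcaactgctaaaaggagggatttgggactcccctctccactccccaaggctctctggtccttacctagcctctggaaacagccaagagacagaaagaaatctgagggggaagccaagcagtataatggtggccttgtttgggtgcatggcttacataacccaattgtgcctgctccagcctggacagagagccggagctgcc
Angptl7: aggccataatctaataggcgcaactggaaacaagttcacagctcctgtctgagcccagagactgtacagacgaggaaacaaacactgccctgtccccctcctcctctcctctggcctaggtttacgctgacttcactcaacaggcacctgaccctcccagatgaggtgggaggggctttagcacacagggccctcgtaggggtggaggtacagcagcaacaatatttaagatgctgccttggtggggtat
Myoc: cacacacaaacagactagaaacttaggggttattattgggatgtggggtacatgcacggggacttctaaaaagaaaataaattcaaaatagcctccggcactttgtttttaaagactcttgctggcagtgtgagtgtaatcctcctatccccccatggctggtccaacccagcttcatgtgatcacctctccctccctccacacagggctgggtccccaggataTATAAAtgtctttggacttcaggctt
Promoters of 5 of the 7 genes were in the table of 32851 promoters used. TATAAA was found before *Myoc*, where it starts at position -26 from the start, and, on the opposite strand only, before *Igfbp6*. On either strand, 12.4% of all promoters hold it in the same window. The letters TGANTCA, the AP-1 motif, are in 6.75% of all promoters, ACANNNTGT, a core of the glucocorticoid receptor motif, in 5.84%, GGGNNTTCC, a form of the NF-kappaB motif, in 4.98%, and TTCNNNGAA, the STAT motif, in 7.02%. None of these 4 was found in the windows of the 5 genes on either strand. The *Igfbp7* window had a GC content of 74%, against 46.8% to 54.4% in the other 4.

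The matrix holds 28867 cells in 17 clusters, 16450 from UW and 12417 from W. The study's text gives more cells for both libraries, so that shares of a library below are shares of the deposited cells. Cluster 0 had 2369 cells in UW and 1719 in W, with 28443236 and 32449791 unique molecular identifiers (UMIs, the counted molecules), and cluster 10 had 565 and 632 cells with 5710692 and 8319091. The median cell of cluster 0 held 11853 UMIs in UW and 17588 in W, and that of cluster 10 held 9288 and 12198. The 2 libraries shared 52 cell barcodes, of which 11 had a cell in cluster 0 or 10. Of the keratocyte markers, *Kera* stood at 7482 UMIs per 1000000 UMIs of the summed cells (CPM) in cluster 0 of UW and 2537 in W, *Lum* at 7733 and 4853 and *Dcn* at 40495 and 22050, so that cluster 0 is called keratocyte-like. *Ptgds*, on the same list, was at 0.0352 and 0.0616 CPM. Cluster 10 carried the same 3 genes (*Kera* at 2747 CPM in UW and 795 in W) together with the corneal endothelial genes *Col8a1* (306 and 211 CPM) and *Col8a2* (710 and 666 CPM), while the endothelial bicarbonate transporter *Slc4a11* was at 53.9 and 6.97 CPM. The 6 endothelial markers summed to 1306 and 978 CPM there and to 422 and 228 in cluster 0, where *Col8a2* was at 328 and 150.05 CPM. Cluster 10 thus carries genes of both lists and keeps its number here. The markers of limbal and scleral fibroblasts summed to 2176 and 1843 CPM in cluster 0 and 1326 and 1040.1 in cluster 10, and the vascular endothelial ones to 217 and 76.9 in cluster 0, nearly all of it *Kdr*, and to 38.0 and 45.4 in cluster 10. Within the cluster 10 sums *Kdr* was lower in W (33.4 and 16.3 CPM) and *Emcn* higher (2.45 and 25.7 CPM). Sums of the Schwann, melanocyte and T-cell markers were at most 7.81, 1.05 and 2.77 CPM, those of monocytes and macrophages at most 40.7, and those of mural cells at most 57.1, with *Rgs5* at 0 except for 1 UMI in cluster 0 of W. The 5 epithelial markers summed to 2301 and 2450.2 CPM in cluster 0 and 2692 and 2939.5 in cluster 10. Within these sums *Krt14* was higher in W (57.4 and 821 CPM in cluster 0, 88.6 and 1002 in cluster 10), as was *Krt15*, and *Krt12* was lower (1554 and 736, 1791 and 871). The neutrophil markers *S100a8*, *S100a9* and *Csf3r*, low in UW (2.004 CPM in cluster 0 and 1.93 in cluster 10), summed to 87.6 and 148 in W. Their part in the results below was not tested.

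Within the stromal clusters 2 patterns of place were seen. *Angptl7* and *Mgp* were high in both clusters, whereas *Myoc*, *Penk*, *Igfbp6*, *Igfbp7* and, in UW, *Chil1* were concentrated in cluster 10. Cluster 10 made up 3.43% of the UW cells and 5.09% of the W cells. It held 94.5% of the *Penk* UMIs of UW and 93.2% of those of W, 89.8% and 92.6% of the *Myoc* UMIs, and 85.9% and 75.0% of the *Igfbp6* UMIs. Of the *Igfbp7* UMIs it held 67.8% and 58.9%. *Chil1* was the member whose place differed between the libraries. Cluster 10 held 86.7% of its UMIs in UW and 37.4% in W, and cluster 0 held 5.32% and 55.9%. For *Angptl7* cluster 0 held 82.1% and 85.2%, and for *Mgp* 65.3% and 53.2%.

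**Figure D1:**
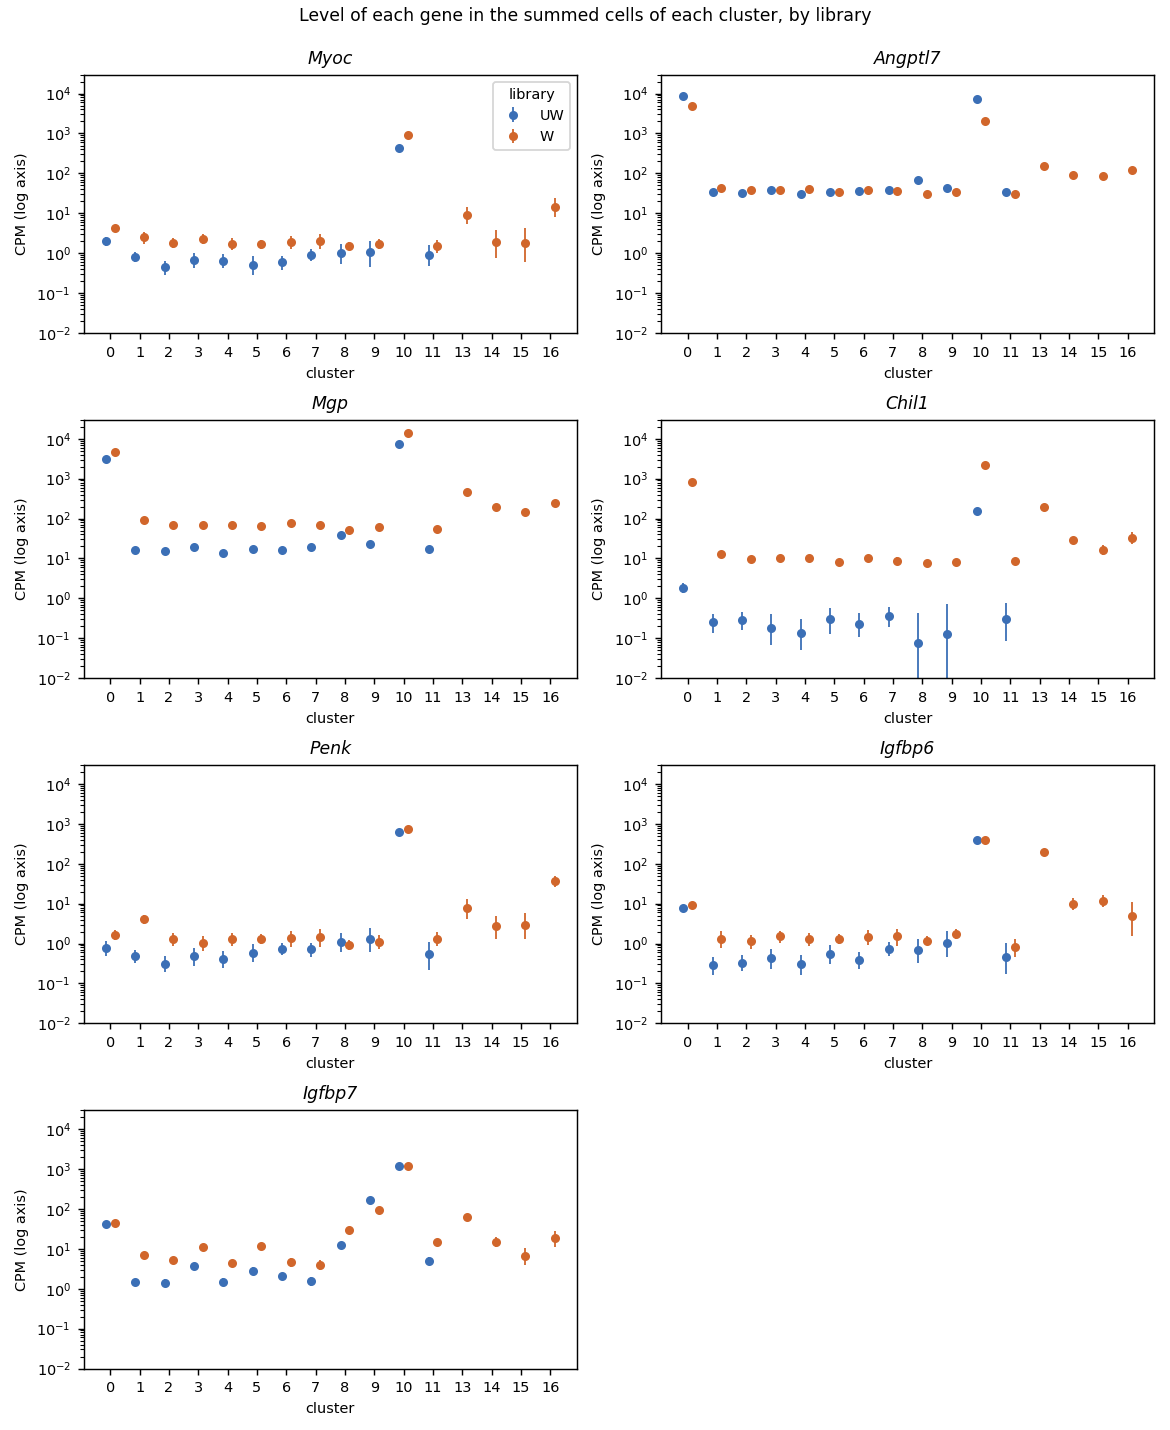
Level of each gene in CPM (log axis) in the summed cells of each cluster with at least 50 cells, for UW (blue) and W (orange), with exact 95% Poisson intervals. Cluster 10 stands highest for every gene except *Angptl7*, which is highest in cluster 0, and the epithelial clusters 1 to 9 and 11 lie far below it, with *Igfbp7* in cluster 9 at 171 and 96.0 CPM the highest epithelial value of both libraries.

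Ordered by level over the clusters with at least 50 cells, 12 in UW and 16 in W, cluster 10 came first for 6 genes in both libraries and cluster 0 for *Angptl7*. The second place went to cluster 0 for *Mgp* and *Chil1* in both libraries and to cluster 10 for *Angptl7*, each clear of its neighbours. For *Igfbp7* the second place went to epithelial cluster 9, with 171 CPM in UW and 96.0 in W, ahead of cluster 0. Below these, most neighbours in the order could not be separated: of 11 neighbouring pairs in UW, the intervals of 10 overlapped for *Myoc* and for *Penk*, 9 for *Chil1* and *Igfbp6*, 8 for *Angptl7* and *Mgp* and 7 for *Igfbp7*. In W, of 15 pairs, 13 overlapped for *Penk* and *Igfbp6*, 12 for *Myoc* and *Angptl7*, 11 for *Chil1*, 8 for *Igfbp7* and 7 for *Mgp*.

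In the 10 epithelial clusters together, 13501 cells in UW and 8507 in W, the members were found at a low level. Set against *Mgp* within a library, the stromal clusters held 2229 *Angptl7* UMIs per 1000 *Mgp* UMIs in UW (2215 to 2244) and the epithelial clusters 2023 (1961 to 2088). In W the corresponding values were 664 (660 to 668) and 549.8 (535 to 565). *Chil1* stood at 166 per 1000 *Mgp* UMIs in the stroma of W and 141 in the epithelium, and at 6.999 and 13.6 in UW. The epithelial ratios of *Angptl7* and *Chil1* thus lay nearer to the stromal ratio of the same library than to that of the other library, although their intervals did not overlap. *Igfbp7* departed from this, at 61.4 per 1000 *Mgp* UMIs in the stroma and 357 in the epithelium of UW, and at 42.1 and 341 in W. In the epithelial sum 6 of the 7 members were at least 2-fold higher in W, where 21.8% of all 16439 genes tested were, and none was 2-fold lower, where 8.77% of genes were. The exception, *Angptl7*, measured 35.7 CPM in UW and 35.6 CPM in W. *Myoc* and *Igfbp6* did not follow the stroma throughout either. *Myoc* was at 39.0 per 1000 *Mgp* UMIs (34.0 to 44.5) in the epithelium of UW and 19.7 in its stroma, and *Igfbp6* at 20.4 (18.2 to 22.8) in the epithelium of W and 12.99 in its stroma. The epithelial values are therefore given below beside the stromal ones as the level in another cell type, and how much of them is free RNA was not tested.

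*Myoc* stood at 442 CPM (425 to 460) in cluster 10 of UW and 931 CPM (910 to 952) in W. In cluster 0 its UW level was 2.004 CPM and its W level 4.28, where the epithelial sum gave 0.688 and 1.79, so that cluster 0 lay far closer to the epithelium than to cluster 10. The level of *Myoc* in cluster 10 was 2.11-fold higher in W, a log2 ratio of 1.07 (1.009 to 1.14), and the intervals of the 2 libraries did not overlap. This ratio depended on how cells were weighted: with each cell thinned to 5000 UMIs the log2 ratio was 0.69, and over 7 alternatives it ran from 0.69 to 1.36.

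*Angptl7* was the member that was lower in W. Its level in cluster 0 was 8772 CPM (8738 to 8807) in UW and 5025 CPM (5001 to 5050) in W, and in cluster 10 it was 7454 CPM (7383 to 7525) in UW and 2014 CPM (1984 to 2045) in W. The log2 ratio of W over UW was -0.80 (-0.81 to -0.79) in cluster 0 and -1.89 (-1.91 to -1.86) in cluster 10, a level 1.75-fold and 3.70-fold lower. Cluster 10 over cluster 0 was -0.23 in UW and -1.32 in W on the log2 scale. The keratocyte genes *Kera*, *Lum* and *Dcn* were also lower in W in both clusters, by log2 ratios of -1.56, -0.67 and -0.88 in cluster 0 and -1.79, -0.43 and -0.61 in cluster 10.

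*Mgp* was higher in W in both clusters. It measured 3142 CPM (3121 to 3163) in cluster 0 of UW and 4772 CPM (4748 to 4796) in W, and 7295 CPM (7225 to 7365) and 13952 CPM (13872 to 14032) in cluster 10. These are log2 ratios of 0.60 (0.59 to 0.61) and 0.94 (0.92 to 0.95), both under 2-fold. Of the 2 members that were high in both clusters of UW, *Mgp* was thus higher in W and *Angptl7* lower.

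*Chil1* showed the widest difference between the libraries. In cluster 0 its level was 1.86 CPM (1.40 to 2.44) in UW, from 53 UMIs, and 829.7 CPM (819.8 to 839.7) in W, from 26924 UMIs. In cluster 10 it was 151 CPM (141 to 162) in UW and 2166 CPM (2135 to 2198) in W. The log2 ratio was 8.80 (8.41 to 9.22) in cluster 0, the 10th highest of 14245 genes tested, and 3.84 (3.74 to 3.94) in cluster 10, the 41st highest of 12441. *Chil1* was 81.2-fold higher in cluster 10 than in cluster 0 in UW and 2.61-fold higher in W. The epithelial sum gave 0.240 CPM in UW and 9.13 in W, so that the W level of both stromal clusters lay far above it.

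*Penk* was at 622 CPM (602 to 643) in cluster 10 of UW and 739.5 CPM (721 to 758) in W, a log2 ratio of 0.25 (0.19 to 0.31). In cluster 0 its UW level was 0.773 CPM and its W level 1.66, where the epithelial sum gave 0.556 and 1.35, with intervals in cluster 0 (0.485 to 1.17 and 1.25 to 2.17) that held the epithelial values, so that no level above the epithelial one is read for *Penk* there.

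*Igfbp6* and *Igfbp7* had log2 ratios close to 0 in the stromal clusters. *Igfbp6* measured 392 CPM (376 to 409) in cluster 10 of UW and 387 CPM (374 to 401) in W, and 7.88 CPM (6.88 to 8.98) and 9.21 CPM (8.20 to 10.3) in cluster 0. *Igfbp7* measured 1204 CPM (1175 to 1233) and 1198 CPM (1174 to 1222) in cluster 10, and 41.2 CPM (38.9 to 43.6) and 44.1 CPM (41.8 to 46.4) in cluster 0. The log2 ratio of *Igfbp6* was -0.02 (-0.10 to 0.06) in cluster 10 and 0.23 (-0.03 to 0.48) in cluster 0, and that of *Igfbp7* was -0.01 (-0.05 to 0.04) and 0.10 (-0.01 to 0.21). All of these intervals, which cover counting error in 1 library each, hold 0. edgeR's TMM scaling and DESeq2 size factors add 1 constant to the log2 ratio of every gene, 0.14 and 0.17 in cluster 0 and 0.11 and 0.12 in cluster 10, after which none of them holds 0 and both signs turn in cluster 10. Since the constant is that of all genes, neither a direction nor the lack of a difference is read for these 2 genes. The signs in cluster 10 also turn with a stricter cell filter.

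Read against all genes, the members moved in both directions. In cluster 0, 3 of the 7 were at least 2-fold higher in W, where 7.34% of the 14245 genes with at least 20 UMIs over both libraries were, and none was 2-fold lower, where 9.67% of genes were. The 3 are *Chil1*, *Myoc* and *Penk*. Of these, *Penk* had a level in cluster 0 close to the epithelial one. *Myoc* was at only 2.004 and 4.28 CPM there, with a log2 ratio of 1.10 beside 1.38 in the epithelial sum. With cells thinned to 5000 UMIs the count was 2, the log2 ratio of *Penk* then being 0.68. In cluster 10, 2 of the 7 were at least 2-fold higher (*Chil1* and *Myoc*), where 4.97% of 12441 genes were, and *Angptl7* alone was 2-fold lower, where 6.63% were. The first count was 1, without *Myoc*, with thinned cells or the mean of the cells' CPM, and 3, with *Mgp*, under TMM, DESeq2 size factors or the stricter cell filter. All 7 passed the filter in both clusters. The median log2 ratio of the members was 0.60 in cluster 0 and 0.25 in cluster 10, beside medians over all genes of -0.15 and -0.09. The scalings named above turn the split of genes past 2-fold in cluster 0 from 1045 higher and 1378 lower to 1235 and 1043 with TMM, and in cluster 10 from 618 and 825 to 740 and 655. DESeq2 size factors give 1276 higher and 1003 lower genes in cluster 0, and 753 and 652 in cluster 10.

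**Figure D2:**
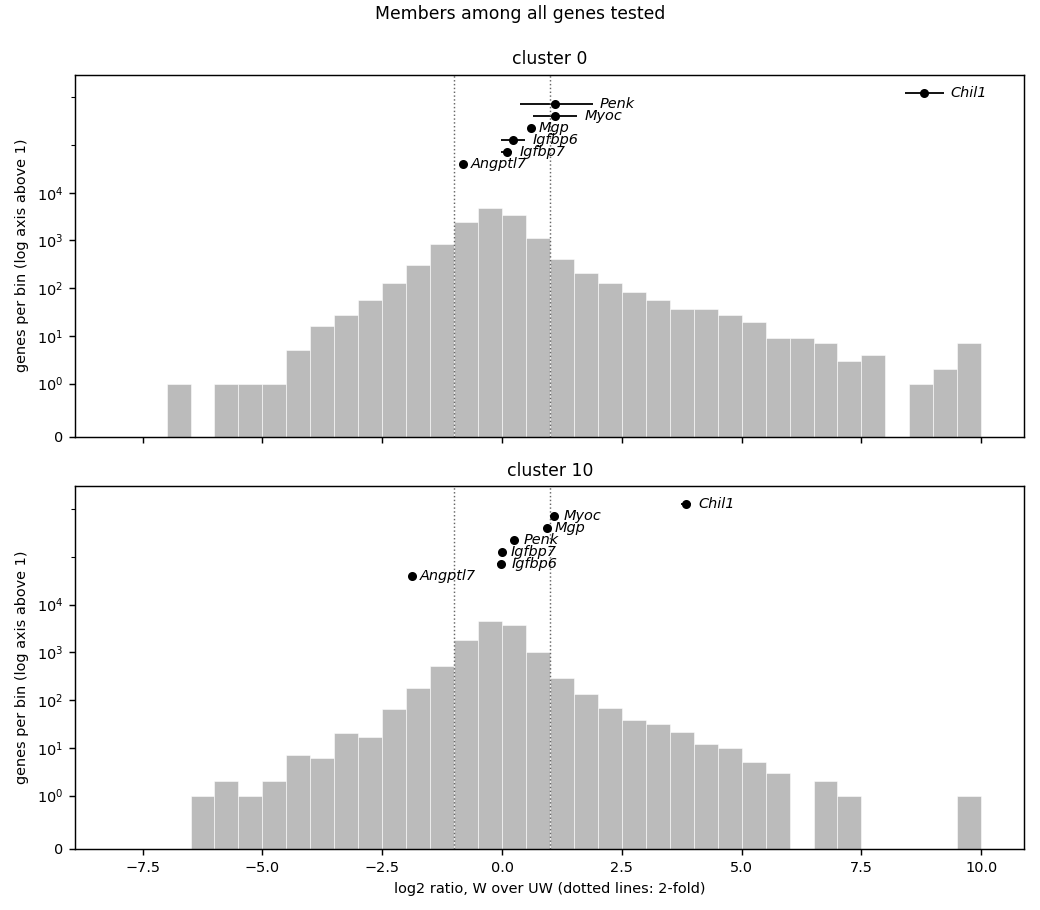
Log2 ratio of W over UW for the 7 members (points with 95% intervals, at arbitrary heights) above the number of genes per bin of the same ratio (bars, log axis above 1, the outermost bins also holding the genes beyond them), for clusters 0 and 10. *Chil1* lies at 8.80 and 3.84, *Angptl7* at -0.80 and -1.89, and the other members fall within the bulk of genes or close to the 2-fold lines.

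Between the clusters, 6 members were at least 2-fold higher in cluster 10 than in cluster 0 in both libraries, where 7.09% of genes were in UW and 8.17% in W. In UW no member was 2-fold lower in cluster 10, where 4.09% of genes were, and in W *Angptl7* was, where 4.75% were. The members were chosen on this contrast, and nothing is read from these counts. The log2 ratio of cluster 10 over cluster 0 was 9.65 in UW and 8.80 in W for *Penk*, 7.78 and 7.76 for *Myoc*, 5.64 and 5.39 for *Igfbp6*, 4.87 and 4.76 for *Igfbp7* and 1.22 and 1.55 for *Mgp*. The *Penk* ratios rest on 22 and 54 UMIs in cluster 0, where no level above the epithelial one is read.

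How many cells carried each gene was compared after every cell had been thinned at random to 5000 UMIs, which left out 51 cells of cluster 0 in UW and 11 in W, and 18 and 12 cells of cluster 10. Nearly all cells of both clusters carried *Mgp* (98.5% to 99.8%). *Angptl7* was found in 93.4% of cluster 0 cells in UW and 93.6% in W, so that its lower sum there came with fewer UMIs per cell, a median of 41 in UW and 24 in W. In cluster 10 both measures were lower in W: *Angptl7* was carried in UW by 84.8% of cells (81.5 to 87.7) and in W by 65.0% (61.1 to 68.8), and the median was 34 and 2 UMIs. In epithelial cells thinned to the same depth, 15.8% carried it in UW and 17.7% in W.

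In UW, *Chil1* was found in 0.777% of cluster 0 cells (0.461 to 1.22), never with more than 2 UMIs, and in W it was found in 63.6% (61.3 to 65.9), with a 90th percentile of 13 UMIs and at most 63. In cluster 10 its UW share was 17.2% (14.1 to 20.6) and its W share 75.6% (72.1 to 79.0). Epithelial cells carried it in 0.122% and 5.45% of cells. *Chil1* was therefore spread over most stromal cells of W rather than held by a few, and the tenth of cells with most *Chil1* held 46.2% of its UMIs in cluster 0 of W and 44.1% in cluster 10 of W, against 89.9% in cluster 10 of UW.

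*Myoc* was carried by a minority of cluster 10, a UW share of 17.6% (14.5 to 21.002) and a W share of 26.5% (23.0 to 30.1), where epithelial cells carried it in 0.434% and 1.22%. The tenth of cells with most *Myoc* held 95.6% of its UMIs in UW and 86.3% in W. For *Penk* the UW share was 32.0% (28.1 to 36.1) and the W share 43.9% (39.9 to 47.9). *Igfbp6* was in 42.2% of cluster 10 cells of UW and 49.2% of W, and *Igfbp7* in 88.8% and 93.4%. Not thinned, each of these shares was higher (22.1% and 33.2% for *Myoc*, 36.5% and 51.1% for *Penk*, 53.8% and 63.8% for *Igfbp6*). In cluster 0 the shares of *Penk*, 0.475% in UW and 0.761% in W, had intervals that held the epithelial shares of 0.358% and 0.924%. *Igfbp6* was in 3.71% and 4.04% of cluster 0 cells and *Igfbp7* in 14.4% and 17.4%, above the epithelial 0.221% and 0.828% and 3.07% and 8.28%. The cells of the whole libraries held a median of 22014 UMIs in UW and 20290 in W before thinning, more than the stromal cells.

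**Figure D3:**
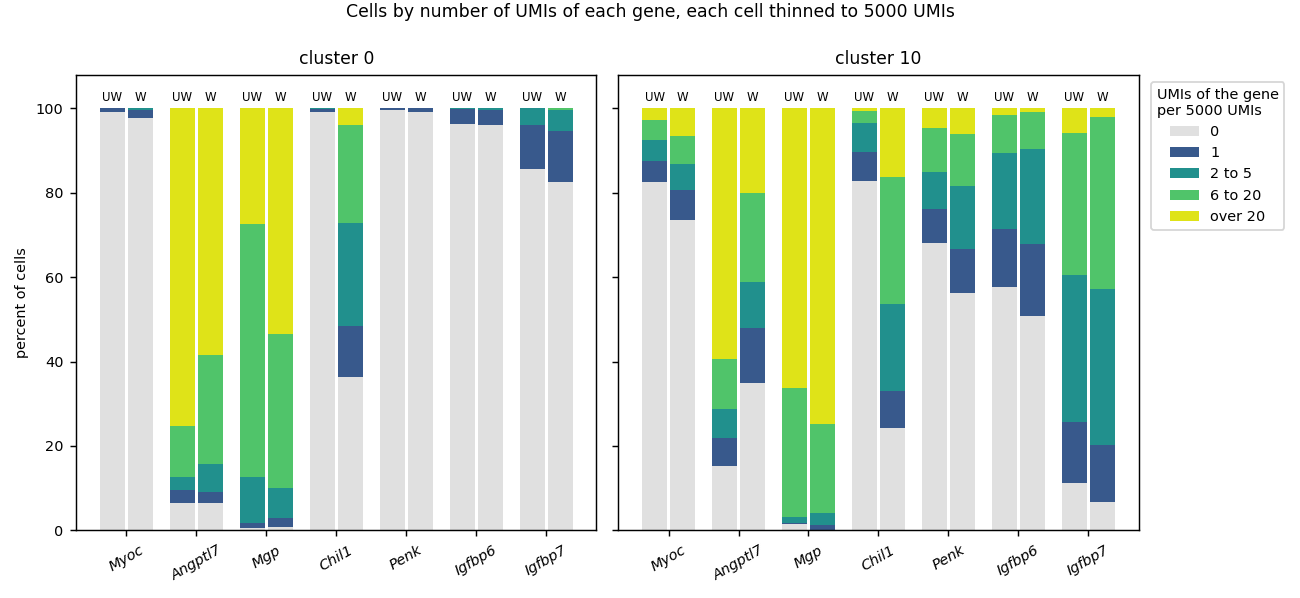
Percent of cells of clusters 0 and 10 by the number of UMIs of each gene after thinning each cell to 5000 UMIs, with UW on the left and W on the right of each pair of bars. The grey share without *Chil1* goes from 99.2% to 36.4% in cluster 0, and over 20 *Angptl7* UMIs are held by 325 of 547 cluster 10 cells in UW and 124 of 620 in W.

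Cells of cluster 10 with 6 or more *Myoc* UMIs among 5000 numbered 41 of 547 in UW, 7.495% (5.43 to 10.03), and 82 of 620 in W, 13.2% (10.7 to 16.1). These ranges were drawn after the values were seen, and 55 cells in UW and 82 in W lay just below, with 1 to 5 *Myoc* UMIs. Within the upper range *Myoc* itself was at 5615 CPM in UW and 5220 in W, values that the choice of cells by their own *Myoc* count partly sets, and from which nothing is read. The range differed from the cells without *Myoc* in the other members too. *Angptl7* was at 1098 CPM in it and 8180 in cells without *Myoc* in UW, and at 461 and 2403 in W. *Mgp* was at 10751 and 6754 CPM in UW and at 26624 and 10510 in W, and *Chil1* at 522 and 109.5 in UW and 4890 and 1386 in W. *Kera* was at 137 and 2941 CPM in UW and 82.9 and 972 in W, and *Spp1*, a secreted phosphoprotein, at 707 and 149 in UW and 3066 and 473 in W.

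Pearson's r over cells, on log1p of the thinned counts, was computed for all pairs in cluster 10, as a description over 547 cells of UW and 620 of W that share a library. *Penk*, *Igfbp6* and *Igfbp7* went together, with r of 0.54 (*Penk* and *Igfbp6*), 0.53 (*Penk* and *Igfbp7*) and 0.51 (*Igfbp6* and *Igfbp7*) in UW and 0.40, 0.41 and 0.41 in W. *Angptl7* had a negative r with each of the other 6 members in both libraries, furthest with *Penk*, at -0.52 and -0.47. Of the cells with *Penk* in UW 70.9% also carried *Angptl7*, and in W 46.3% did. With the keratocyte proteoglycan *Kera*, *Angptl7* had r of 0.64 in UW and 0.57 in W, while *Penk* had -0.53 and -0.45 and *Igfbp7* -0.58 and -0.46. *Chil1* had r of 0.29 with *Mgp* in UW and 0.46 in W, and of 0.27 and 0.42 with *Myoc*. In W its r was only 0.03 with *Igfbp6* and 0.07 with *Igfbp7*, where UW gave 0.23 and 0.25, and with *Kera* it was -0.25 in UW and 0.05 in W. With the epithelial keratin *Krt12* no member's r went beyond 0.09 in either direction. In cluster 0 the pair *Angptl7* and *Mgp* had r of 0.36 in both libraries, and *Mgp* and *Chil1* 0.36 in W.

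**Figure D4:**
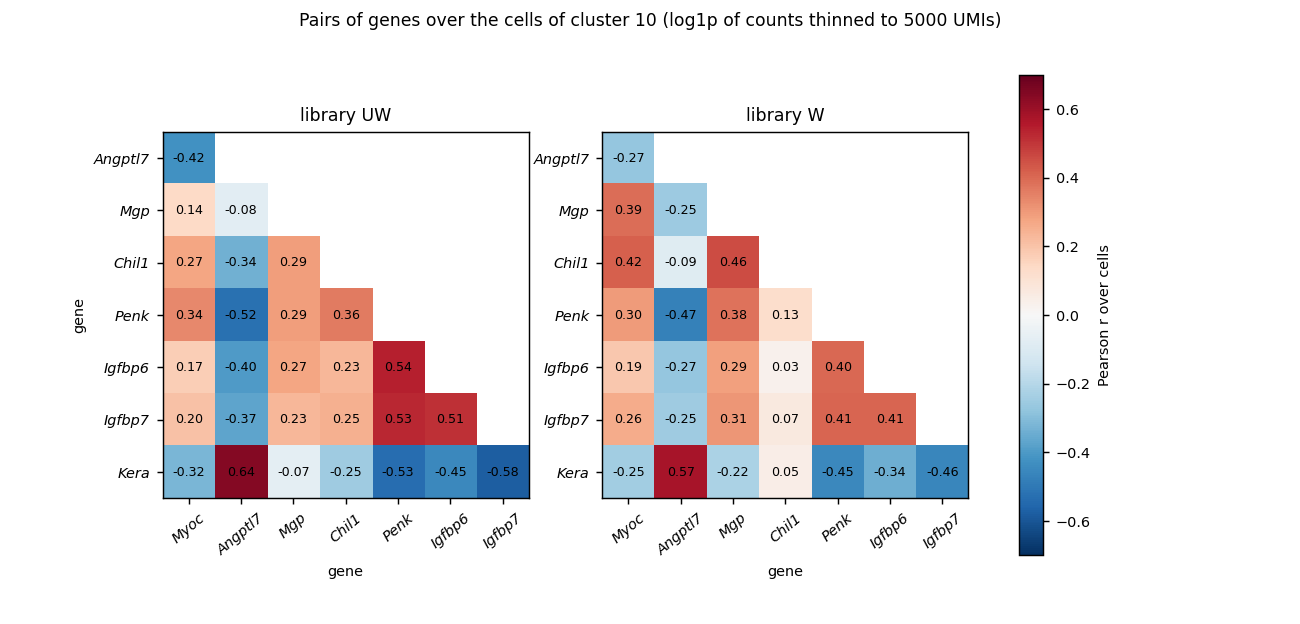
Pearson's r between pairs of members, and between members and *Kera*, over the 547 UW cells (left) and 620 W cells (right) of cluster 10, on log1p of counts thinned to 5000 UMIs. *Angptl7* is negative with every other member and positive with *Kera*, and *Penk*, *Igfbp6* and *Igfbp7* are positive with each other.

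Because of this arrangement, an alternative chosen after the data were seen cut the cells of cluster 10 within each library into 3 groups of like size by their *Kera* CPM, called low, middle and high. In UW 175 of the 189 cells of the low group had no *Kera* UMI, and in W all 211 had none, with 112 more in the middle group, so that the same group of the 2 libraries does not hold equal *Kera*. The W cells without *Kera* were divided between the low and middle groups by their order in the matrix alone. In the middle group *Kera* was at 1639 CPM in UW and 63.3 in W. *Angptl7* went up with *Kera* across the groups, at 2693, 7309 and 11692 CPM in UW and 912, 1011 and 4047 in W, and was lower in W in each. *Chil1* was higher in W in each group, at 281, 152 and 38.5 CPM in UW and 2324, 2365 and 1819 in W. *Penk* ran the opposite way from *Angptl7*, at 1408, 507 and 31.5 CPM in UW and 1177, 1036 and 35.3 in W. *Igfbp6* was at 719, 439.8 and 71.9 CPM in UW and 614, 459.6 and 104 in W, and *Igfbp7* at 1993, 1283 and 458 in UW and 1590.5, 1459 and 571 in W. *Myoc* was at 945, 413 and 28.3 CPM in UW and 1158, 1492 and 152 in W, so its log2 ratio ran from 0.29 in the low to 2.43 in the high group. For *Penk* the ratio was -0.26, 1.03 and 0.16, and for *Mgp* 0.85, 1.37 and 0.33. Each of these ratios compares cells of unlike *Kera* level.

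**Figure D5:**
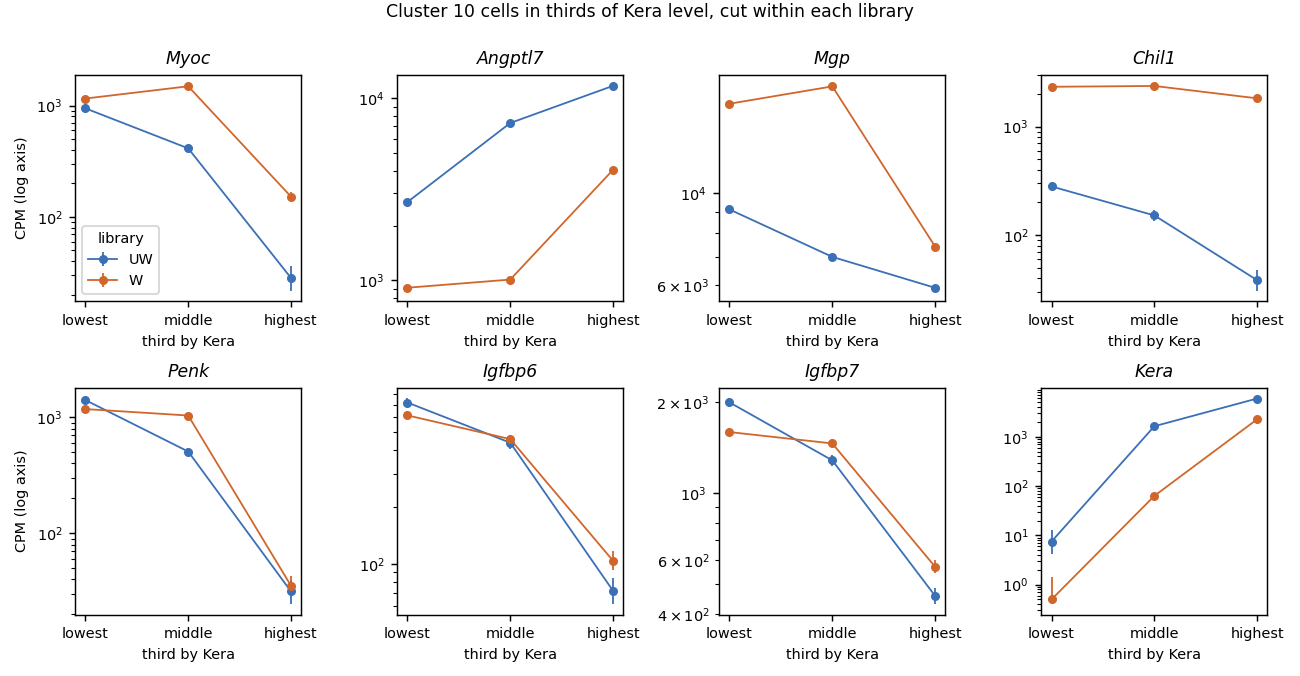
CPM (log axes, each panel with its own range) of the members and of *Kera* in 3 groups of cluster 10 cells of like number, from low to high *Kera*, cut separately in UW (blue) and W (orange), with 95% Poisson intervals and the value 0 of *Kera* drawn at 0.5. *Angptl7* follows *Kera* upward with W below UW in every group, and *Penk*, *Igfbp6* and *Igfbp7* go down in both libraries. *Penk* in the middle group is at 507 CPM in UW and 1036 in W, where *Kera* is at 1639 and 63.3. The W cells without *Kera* are divided between the low and middle groups by their order alone.

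The genes most like each member over 28 sums of cluster and library with at least 50 cells were named by Pearson's r of log2(CPM + 10), among 6223 genes that reached 50 CPM in one of them. All the sums of a library share its depth and free RNA, and a gene of the same cell type reaches a high r by place alone. *Myoc* was most like *Wisp2* (r = 0.99), *Aspn* (0.99) and *Penk* (0.99), and *Penk* like *Myoc*, *Aspn* and *Wisp2*. *Angptl7* was most like *Ntrk2*, a neurotrophin receptor, *Col5a2* and the Wnt antagonist *Dkk2* (0.99 or more for each). For *Mgp* the nearest genes were *Apod* (0.98), *Thbs2* (0.98) and the complement inhibitor *Serping1* (0.98). *Chil1* came nearest to *Iigp1*, an interferon-induced GTPase (0.95), *Serpina3n*, an acute-phase protease inhibitor (0.94), and *Cxcl5*, a chemokine for neutrophils (0.94). *Igfbp6* was nearest to *Cxcl12* (0.96), *Ccdc80* and *Acta2*, and *Igfbp7* to *Ctgf* (0.95), *Serpine2* and *Fmo1*.

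Over single cells of cluster 10 in UW, among 8064 genes, *Angptl7* was most like *A2m* (r = 0.72, and 0.61 in W), *Col6a1* (0.71 and 0.45) and *Col6a2* (0.68 and 0.39). *Penk* was most like *Gas6* (0.69 and 0.68), *Emb* (0.63 and 0.59) and *Cst3* (0.63 and 0.54). *Gas6*, a vitamin K-dependent ligand of the TAM receptors, was also among the 3 nearest genes of *Chil1* (0.38 and 0.16) and *Igfbp6* (0.54 and 0.40). *Myoc* was most like the protease inhibitor *Serpine2* (0.61 and 0.62), *Emb* (0.57 and 0.59) and *Mylk* (0.49 and 0.36), *Mgp* like *Itgbl1*, *Cst3* and *Lum* (0.43, 0.42 and 0.42), and *Igfbp7* like *Penk*, *Fmod* and *Igfbp6* (0.53, 0.52 and 0.51).

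Other genes of the members' families and pathways were counted from lists. Of 14 genes of the IGF axis beside the members, 10 were tested in cluster 0, of which 3 were 2-fold higher in W and 1 lower, and 11 in cluster 10, of which 4 were higher and none lower, beside 7.34% and 9.67% of all genes in cluster 0 and 4.97% and 6.63% in cluster 10. *Igfbp2* was lower in W like *Angptl7*, at 19067 and 10720.3 CPM in cluster 0, while *Igfbp4* was at 897 and 1481 CPM in cluster 10 and *Igfbp5* at 1339 and 1221. *Stc1*, a stanniocalcin that inhibits the IGFBP protease PAPP-A, was at 47.5 and 126 CPM in cluster 10 and 0.738 and 1.97 in cluster 0. *Stc2*, its relative, was at 13.9 and 44.6 CPM in cluster 0 and at 4.03 and 3.97 in cluster 10. *Igf1*, the ligand, was at 36.4 and 58.9 CPM in cluster 10, a log2 ratio of 0.69 (0.46 to 0.93). So within one family *Igfbp2* was lower and *Igfbp4* higher in W in cluster 10, and the ratios of *Igfbp6* and *Igfbp7* lay close to 0.

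Of 6 other angiopoietin-like genes, 4 were tested in each cluster, with 1 higher in cluster 0, and 1 higher and 1 lower in cluster 10. Beside this and the lists below stand all genes: 7.34% higher and 9.67% lower in cluster 0, and 4.97% and 6.63% in cluster 10. *Angptl1* was lower in W like *Angptl7*, at 441 and 271 CPM in cluster 0 and 389 and 192 in cluster 10, and *Angptl2* less so (94.4 and 75.5, and 84.9 and 69.7). *Angptl4*, an inhibitor of lipoprotein lipase, was at 1.58 and 23.4 CPM in cluster 10. Of 8 olfactomedin-family genes beside *Myoc*, 5 were tested in cluster 0, of which none was higher and 2 lower, and none of 6 passed 2-fold in cluster 10. *Olfml3* was at 1027 CPM in cluster 10 of UW and 821 in W, so that the direction of *Myoc* was not that of its relative.

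Of 10 genes of the enkephalin system, 5 were tested in cluster 0 and 4 in cluster 10, with 1 higher in each and none lower. *Pcsk2*, a convertase that cuts proenkephalin, was at 128 and 138 CPM in cluster 0 and 51.3 and 68.3 in cluster 10. *Ogfr*, the opioid growth factor receptor, was at 19.1 and 38.0 and at 16.5 and 35.7, past 2-fold in cluster 10 only. The gene counted as higher in cluster 0 was another one, at 0.773 CPM in UW and 1.76 in W. Of 10 genes of Gla modification and calcification, 8 were tested in each cluster, with 3 higher in cluster 0 and 2 in cluster 10 and none lower. *Ggcx*, the carboxylase that activates *Mgp*, was at 34.5 and 17.6 CPM in cluster 0, lower in W where *Mgp* was higher, and *Vkorc1*, which recycles vitamin K, was at 137 and 111 CPM there and 186 and 186 in cluster 10. *Gas6* was at 497 and 989.9 CPM in cluster 10 and *Spp1* at 257 and 1029.

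Of 7 genes of chitinase-like proteins and their receptors beside *Chil1*, 4 were tested in cluster 0, with 1 higher and none lower, and neither of the 2 tested in cluster 10 passed 2-fold. The gene that was higher, named after its values were seen, is *Il13ra2*, a receptor for the *Chil1* protein, with 0 UMIs in cluster 0 of UW and 97 in W. In cluster 10, where it did not pass the filter, it had 1 and 13. *Tmem219*, its co-receptor, was at 44.5 and 43.6 CPM in cluster 0 and 33.1 and 35.0 in cluster 10, with log2 ratios of -0.03 and 0.08 whose intervals held 0. All 8 glucocorticoid-responsive genes were tested in both clusters, listed because *Myoc* is known to be induced by glucocorticoids in drainage tissue. In cluster 0, 1 was higher and 1 lower, and in cluster 10 none was higher and 1 lower. *Sgk1* was at 276 and 446 CPM in cluster 10, *Klf9* at 392 and 601, *Fkbp5* at 20.3 and 24.3 and *Tsc22d3* at 365 and 258, so that no common direction was seen there.

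The 22 cells of cluster 0 and 5 of cluster 10 that a first doublet run had named changed the direction of none of the 7 members' ratios of W over UW in either cluster when left out, and *Chil1*, *Angptl7* and *Mgp* kept theirs under each alternative tried in both clusters.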

How the data were processed

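Per the labels and the study's methods, the authors aligned 10x Genomics 3′ reads with Cell Ranger 3.1.0, left out cells outside 500 to 8000 genes or above 10% mitochondrial counts, removed doublets and clustered both libraries together in Seurat with 15 components at a resolution of 0.4. The labels name the mm9 build and the methods mm10. The deposited matrix holds whole UMI counts per gene and cell, not normalized, and the deposited table of cells holds the cluster numbers used here, with other columns of doublet calls and scores. Its cells held 501 to 7570 genes. From the counts, UMIs were summed per cluster and library and divided by the sum's total to give CPM. Intervals are exact Poisson for sums, Clopper-Pearson for shares and exact conditional binomial for ratios, and zero counts were set to 3 in the ratios of all genes. Genes with at least 20 UMIs over both sums were compared, and 2-fold is a size, not a test. Cells were thinned without replacement to 5000, 2000 or 1000 UMIs. The members and lists were chosen with earlier results of these data known. Named genes are the members, listed genes at 20 CPM or more in cluster 0 or 10, and the 3 genes nearest each member, besides cell type markers and *Il13ra2*, which was chosen after its values were seen. The ratio and thinning steps were tested on simulated data. Python 3.11.15, numpy 2.4.6, scipy 1.17.1, pandas 2.3.3, R 4.3.3, edgeR 4.0.16 (TMM) and DESeq2 1.42.0 (size factors) were used.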

Additional observations from a re-analysis of the deposited data

Results flagged for a closer look

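*Igfbp7* differed in direction between epithelial clusters. In cluster 8 the log2 ratio of W over UW was 1.28 (1.04 to 1.52), from 12.5 CPM in 535 cells to 30.3 CPM in 1332 cells, and in cluster 9, where *Igfbp7* was highest among epithelial cells, it was -0.84 (-0.93 to -0.74), from 171 CPM in 521 cells to 96.0 CPM in 956. These results were singled out because the clusters moved opposite ways. The difference was not tested, since each condition is 1 library. In the other 8 epithelial clusters the ratio ran from 1.14 to 2.25. Thinned to 5000 UMIs, the UW cells of cluster 9 carried *Igfbp7* in 49.1% (44.7 to 53.6) and its W cells in 33.6% (30.6 to 36.7), and for cluster 8 the shares were 5.49% and 10.3%. The number of cells in cluster 9 and their median depth, 13944 UMIs before and 24009 after wounding, moved with the result, and their part in it was not tested.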

How the results depend on the processing

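No paired analysis was possible because each condition is 1 library and the labels give no replicate numbers, and no library could be left out. Of the members' values under the alternatives, 132 stayed within the counting interval of the value reported and 141 moved outside it, and none that was past 2-fold changed sign. The number of members at least 2-fold higher in W in cluster 10, 2 as reported, was 1 with the mean of the cells' CPM and 1 with thinned cells, since *Myoc* then fell under 2-fold. In cluster 0 the count of 3 was 2 with thinned cells, without *Penk*. The groups of cluster 10 cells by *Kera* were an alternative chosen after seeing the data. With them the cluster 10 count was 1 in the low group, 4 in the middle group and unchanged in the high group. In cluster 10, TMM, DESeq2 size factors and the stricter cell filter gave 3, *Mgp* being the added gene. The count of all genes past 2-fold depended on the filter. With at least 1 UMI it was 2004 higher and 2611 lower in cluster 0 and 1648 and 2705 in cluster 10, and with at least 100 UMIs 587 and 867, and 310 and 275, since the filter sets how many genes with few UMIs are tested. Depth limits what can be said of *Myoc* and *Penk* in cluster 0, where 22 to 139 UMIs lie behind each value.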

Other observations

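The neutrophil-like cluster 13, with 1 cell in UW, carried *S100a9* at 19963 CPM and *Csf3r* at 409 in W, and held *Igfbp6* and *Chil1* as well. *Igfbp6* measured 202 CPM (182 to 224) in its 710 cells and 9.21 CPM in cluster 0 of W, second only to cluster 10, and 214 cells carried it, with no cell above 6 UMIs. Set against *Mgp*, cluster 13 held 424 *Igfbp6* UMIs per 1000 *Mgp* UMIs (375 to 480), against 12.99 in the stroma and 20.4 in the epithelium of W. *Chil1* stood at 199 CPM and 419 per 1000 *Mgp* UMIs (370 to 474), against 166 and 141, whereas *Angptl7* was at 318, below the 664 and 549.8 of the same library. In cluster 14 of W, which has 354 cells there and 7 in UW, *Igfbp6* was at 51.5 per 1000 *Mgp* UMIs (36.0 to 71.7) and *Chil1* at 145, and in clusters 15 and 16 of W *Igfbp6* was at 79.0 (53.3 to 113) and 19.4. Thinned to 1000 UMIs, 16.9% of cluster 13 cells (14.2 to 19.9) and 1.41% of cluster 14 cells carried *Igfbp6*. The median cell of cluster 13 held 2509.5 UMIs.

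*Penk* in the T-cell-marked cluster 16 of W (*Cd3g* at 1161 CPM) came to 38 UMIs in 215 cells, of which 30 lay in 1 cell. Cluster 17, with 29 cells of W, held *Angptl7* at 3810.2 CPM, *Mgp* at 4204 and *Chil1* at 934 together with *Kera* at 2598 and *S100a8* at 1578 CPM, genes of both keratocytes and neutrophils, and was left out of every comparison above.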
